A study of Mus musculus with 14 samples.

Results

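The subunits of the nuclear RNA polymerases were followed through 31 genes in mouse oocytes. A gene was eligible when its symbol begins with Polr1, Polr2 or Polr3, or is Crcp, Twistnb, Znrd1 or Cd3eap, which encode further subunits. All 31 were measured at both stages, among 18194 genes listed for germinal vesicle (GV) oocytes and 16509 listed for ovulated oocytes, 16196 of them in common. By enzyme, 6 of the genes belong to RNA polymerase I (Pol I), 2 to Pol I and Pol III, 5 to Pol I, II and III alike, 8 to Pol II and 10 to Pol III. The study compared oocytes with and without the mitochondrial fission factor gene Mff, whose product recruits the fission machinery to mitochondria. Floxed Mff alleles were present in every group, alone (Mff fl/fl) in the group called WT, and together with a Cre transgene driven by the oocyte promoter of Gdf9 (Mff fl/fl; Gdf9-Cre) in the group called CKO. Oocytes were taken at the GV stage, when they are arrested in prophase of the first meiotic division, or after ovulation. Each genotype had 4 libraries at the GV stage and 3 after ovulation. The labels' protocol speaks of single-cell samples, and gives neither the ages of the mice nor the number of oocytes or animals behind a library. The p-values therefore describe the spread among the libraries, which may be technical.

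Pol I transcribes the precursor of the large ribosomal RNAs, Pol II transcribes mRNAs and most small nuclear RNAs, and Pol III transcribes tRNAs and other short RNAs. Each enzyme is built on a pair of very large catalytic subunits, a set of small subunits common to all nuclear polymerases, an assembly platform and a protruding stalk, and Pol I and Pol III add subunits that resemble initiation and elongation factors of Pol II. Growing oocytes transcribe actively and store mRNA, and transcription is silenced before meiosis resumes. From then on the mRNA level of a gene depends on decay, and its translation on the length of the poly(A) tail. In many stored mRNAs, tail lengthening during maturation relies on a polyadenylation signal and on a nearby cytoplasmic polyadenylation element, the U-rich site bound by CPEB proteins.

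The 3′ ends of the subunit mRNAs were therefore read from 1 annotated transcript per gene, over the last 100 bases of the 3′ untranslated region where it was that long. The polyadenylation signal AATAAA or ATTAAA was found in 28 of the 31 genes, against 81.3% of the 12066 tested genes with at least 100 such bases. A match to TTTTAT or TTTTAAT, the letters of the cytoplasmic element in DNA form, was found in 5 of 31, against 19.8%. The search used the transcript's strand alone, and TTTTATTAAA holds both kinds of motif in overlap. The 5 genes with such a match are shown first, as a part of the window, 5′ to 3′ along the mRNA in DNA letters. Capitals mark every match that lies within the printed stretch. All positions lie in 3′ untranslated regions on GRCm38 (mm10).
Polr2f, chr15:79151728-79151757, plus strand: cccgTTTTATatgtgtaaatAATAAAcctc
Polr2h, chr16:20722233-20722262, plus strand: atatgattttTTTTATTAAAgttttctttt
Polr1c, chr17:46243981-46244010, minus strand: agtcaatacaTTTTATTAAAtgtgccacag
Polr2b, chr5:77349247-77349276, plus strand: ttgtgataagaaTTTTATttgttttgttta
Polr2k, chr15:36176908-36176937, plus strand: gtaTTTTAATactttgtataaaggaaattt
Counted from the last base of the transcript, the element began at base 43 in Polr2f, 25 in Polr2h, 81 in Polr1c, 66 in Polr2b and 97 in Polr2k. Outside the printed stretches, a polyadenylation signal began at base 30 in Polr1c, 21 in Polr2b and 17 in Polr2k. The untranslated region of Polr2f is 95 bases long and was searched whole. Among the genes that were higher in ovulated CKO than in ovulated WT oocytes, Polr2k alone held the element's letters in this window. The others are Znrd1, in which neither motif was found, and the following 3, which show a polyadenylation signal only.
Polr1d, chr5:147079048-147079077, plus strand: gtatatttgcctAATAAAttctctcttttg
Polr2l, chr7:141471860-141471889, minus strand: tgtacttacatatattAATAAATAAAtctt
Polr3k, chr2:181870797-181870826, plus strand: gtactcatacacATTAAAttaatcttttaa
No polyadenylation signal of these letters was found in Polr3a, Polr3f or Znrd1 either. A match describes the annotated sequence only, and poly(A) tails were not measured. Whether tail length affected the measured levels was not tested.

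Library totals lay between 26575593 and 28847424 estimated counts. The 100 most abundant genes took 35.2% to 42.4% of the counts in GV WT 2, GV CKO 1 and GV CKO 2 and 48.2% to 51.1% in the other 5 GV libraries, so these 3 stand apart. In ovulated oocytes the share was at most 35.4% and was lowest in ovulated CKO 2. Levels are given as CPM, counts scaled to library size, with TMM factors over all 14 libraries unless stated. Mff, the targeted gene, stood at 477 to 945 CPM in GV WT and 30.1 to 47.2 in GV CKO, and at 304 to 688 in ovulated WT and 31.3 to 54.4 in ovulated CKO, so every CKO library was below every WT library. All 12 oocyte markers were measured, summing to 14700 to 31000 CPM of the library total (without TMM scaling, as for all marker sums) in every library. The sum hides single oocyte markers that went both ways from ovulated WT to ovulated CKO. Mean Zp2 went from 139 to 808 CPM and Figla from 0.785 to 15.4. Mean Gdf9 went from 9100 to 6000 and Mos from 1050 to 717. Of 17 granulosa and cumulus markers, 14 were measured in GV and 11 in ovulated oocytes, and they summed to 49.2 to 114, mostly Cyp19a1. The number of cells behind a library is not given, so fewer cells of a type and less RNA per cell cannot be told apart. In 9 subunit genes the deposited counts were not all whole numbers, so reads shared with other sequences may have been divided: Cd3eap, Polr1b, Polr2c, Polr2f, Polr2i, Polr2k, Polr2l, Polr3f and Polr3gl. In another set of 9 the exons overlap a gene on the opposite strand, and whether counting used strand is not stated in the sources used here. These are Cd3eap, Polr1a, Polr2b, Polr2c, Polr2f, Polr2i, Polr2j, Polr3b and Polr3gl, of which Polr2c shares 862 exon bases with Dok4 and Polr2i shares 325 with Tbcb.

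**Figure D1:**
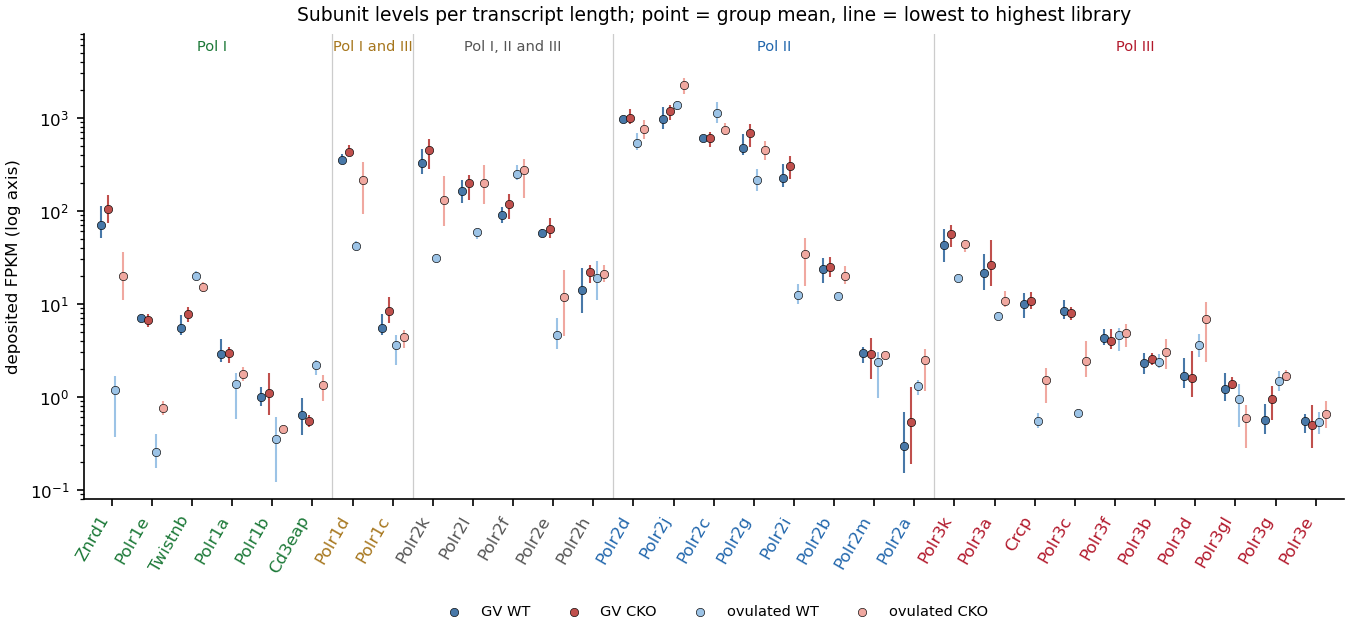
Deposited FPKM (log axis) of the 31 subunit genes in WT and CKO oocytes of both stages, with the group mean as a point and the lowest to highest library as a line. Polr2d, Polr2j and Polr2c stand above 500 in every group mean, whereas Polr2a, the largest Pol II subunit gene, has the lowest GV WT mean, 0.297.

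Per transcript length, the subunits of each enzyme were far from equal at the mRNA level. In GV WT oocytes the highest mean FPKM values (fragments scaled to transcript length and library depth, as deposited) belonged to Pol II genes: Polr2d at 961, Polr2j at 959, Polr2c at 609 and Polr2g at 477. Polr2c and Polr2j encode the pair on which the Pol II core assembles, and Polr2d and Polr2g encode its stalk. Next came Polr1d at 352 and Polr2k at 329. Of the catalytic subunit genes, Polr2b at 23.4 and Polr3a at 21.2 stood at ranks 13 and 14 of 31, while Polr1a at 2.90, Polr3b at 2.29, Polr1b at 0.992 and Polr2a at 0.297 were at ranks 23, 24, 27 and 31. Of the 30 neighbouring pairs in the order of GV WT means, 27 had overlapping library ranges, so the order is coarse. Polr2a encodes the largest Pol II subunit, which carries the heptad-repeat tail, and Polr2b the subunit that completes the catalytic centre. The ratio of Polr2a to Polr2b, as the median over libraries of FPKM ratios, was 0.009 in GV WT, 0.0139 in GV CKO, 0.116 in ovulated WT and 0.121 in ovulated CKO. Polr3g and Polr3gl encode alternative versions of the same Pol III subunit. Their median FPKM ratio was 0.473 in GV WT and 0.675 in GV CKO, and 1.13 in ovulated WT and 2.16 in ovulated CKO. The lowest ovulated ratio was 1.01, in WT, and the highest GV ratio was 1.00, in CKO, so the ranges all but touched. Polr3gl had only 15 to 40 estimated counts in the ovulated WT libraries and 9 to 24 in ovulated CKO. At such counts a gap this small does not separate the stages.

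Between GV and ovulated WT oocytes most subunit mRNAs fell relative to the other mRNAs, by up to 72.7-fold, while a few rose. Levels are scaled across libraries, so every rise or fall between stages in this text is relative. Amounts of mRNA per oocyte were not estimated. Of the 31 genes, 17 were lower and 5 were higher at an adjusted p under 0.05 (edgeR quasi-likelihood test, Benjamini-Hochberg adjustment over all 13199 genes tested), and 9 did not pass. Over all genes, 36.2% were called lower and 30.3% higher, 66.4% in either direction. The median log2 fold change was -1.23 over the subunit genes and -0.17 over all genes, and on the log2(FPKM + 1) scale these medians were -0.57 and 0.07. Stage coincides with separately deposited tables, so stage and any batch between them cannot be told apart. The summed granulosa and cumulus markers were 49.7 to 97.4 CPM in GV WT and 103 to 114 in ovulated WT. Single markers went both ways. From GV WT to ovulated WT, mean Cyp19a1 went from 43.0 to 84.5 CPM and Kitl from 2.44 to 10.9. Over the same step Cyp11a1 went from 9.21 to 1.5, Inhba from 1.09 to 0.257 and Fshr from 0.692 to 0.122. The part of these markers in the stage differences was not tested.

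Pol I genes moved in both directions. Znrd1 encodes the small subunit that stimulates RNA cleavage at the active site. Its level was 37.2 ± 4.61 CPM (SD, n = 4) in GV WT and 0.51 ± 0.309 (SD, n = 3) in ovulated WT, where the single libraries held 20, 5 and 21 estimated counts. This was the largest fall among the 31, with a log2 fold change of -6.18 (SE 0.51, edgeR adjusted p = 3.37e-08). Polr1e, which forms with Cd3eap the dimer resembling the Pol II factor TFIIF, fell, with a log2 fold change of -5.24. Its partner Cd3eap rose by 1.26, from 1.66 to 3.94 CPM. Twistnb, of the Pol I stalk, stood at 11.8 to 14.9 CPM in the GV WT libraries and at 35.0, 33.6 and 44.4 in ovulated WT, and rose by 1.48 on the log2 scale (SE 0.23, edgeR adjusted p = 2.78e-05). The catalytic Polr1a and Polr1b fell, at -1.51 and -1.92. Thus all 6 genes of Pol I alone passed the test, 4 lower and 2 higher. The assembly subunits that Pol I shares with Pol III both fell, Polr1d at -3.43 and Polr1c at -0.97.

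Among the 5 subunits common to all nuclear polymerases, 3 fell, 1 rose and 1 did not pass. The log2 fold changes were -4.04 for Polr2e, -3.56 for Polr2k and -1.86 for Polr2l. Polr2f, whose 3′ end is shown above, stood at 35.4 ± 4.16 CPM (SD, n = 4) in GV WT and at 65.4, 70.3 and 101 in ovulated WT, without overlap. It rose by 1.16 (SE 0.29, edgeR adjusted p = 0.00169). Polr2h, at 8.66 ± 1.96 CPM (SD, n = 4) before and 9.83 ± 5.21 CPM (SD, n = 3) after ovulation, did not pass (0.18). Of the 5 genes with the letters of the cytoplasmic polyadenylation element, then, Polr2f rose, Polr2h did not pass, and Polr1c, Polr2b and Polr2k fell. The part of poly(A) tail length in these measured changes was not tested.

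In the Pol II group, Polr2a rose by 1.87 on the log2 scale (SE 0.48, edgeR adjusted p = 0.00221), from 1.38 to 3.78 CPM in the GV WT libraries to 7.49, 6.00 and 9.37 in ovulated WT. Its catalytic partner Polr2b fell, at -1.34, from a mean of 98.7 to 38.9 CPM. Polr2i, a small subunit involved in start site choice and transcript fidelity, fell, at -4.49. The stalk genes Polr2d and Polr2g fell, at -1.23 and -1.48. In the assembly pair, Polr2c had a log2 fold change of 0.45 and Polr2j one of 0.23, and neither passed. Polr2m, which encodes an associated inhibitor rather than a core subunit, was at -0.78 and did not pass.

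Pol III genes showed 4 falls, 1 rise and 5 that did not pass. The falls were -4.53 for Crcp, of the stalk, -3.96 for Polr3c, -1.64 for the catalytic Polr3a and -1.53 for Polr3k, which acts in RNA cleavage and termination. Polr3c, Polr3f and either Polr3g or Polr3gl form the trimer that binds the initiation factor Brf1. In that trimer Polr3g rose by 1.02, while Polr3f at -0.30 and Polr3gl at -0.75 did not pass. Nor did the second catalytic gene Polr3b at -0.36, nor Polr3d at 0.79 and Polr3e at -0.17, whose products form the TFIIF-like dimer of Pol III. The groups did not overlap for 17 genes that were lower and 6 that were higher, against 37.3% and 31.4% of all genes (68.7% in either direction). The call for Polr1c was lost without ovulated WT 1 (edgeR adjusted p = 0.0682) and that for Polr3g without ovulated WT 3 (0.0576). When the trend with transcript length was removed from each library, 16 subunit genes were lower and 9 higher, against 4104 and 4538 of all genes, and Polr1c, Polr2d and Polr2g changed sign, to 0.39, 0.31 and 0.22, without passing.

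In CKO oocytes, 17 subunit genes were lower and 3 higher after ovulation, and 11 did not pass, against 31.2% and 23.2% of all genes, 54.4% in either direction (edgeR, 13199 genes). On the log2(FPKM + 1) scale 12 were lower and 7 higher, and the balance over all genes turned, to 3009 lower and 4383 higher. The median log2 fold change was -0.88 over the subunit genes and -0.19 over all. Of the genes lower in WT, 16 were also lower in CKO, and of those higher in WT, Polr2a and Polr2f were also higher in CKO. The deepest falls in CKO were -3.75 for Polr1e, -3.62 for Polr2i, -3.36 for Crcp, -2.99 for Polr2e and -2.91 for Znrd1. Polr2a rose by 1.87, Polr3d by 1.67 and Polr2f by 0.81, although single libraries of the stages overlapped for each of these 3. Polr3gl fell, at -1.66. The groups did not overlap for 16 genes that were lower and 2 that were higher, Polr2j and Cd3eap, neither of them called, against 30.6% and 21.8% of all genes (52.4% in either direction).

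Some genes passed in WT and not in CKO. Polr2l was at -0.50 in CKO, and Twistnb, Cd3eap and Polr3g were at 0.42, 0.73 and 0.33. Passing in 1 genotype alone does not show a difference, and the test of the difference follows further on. Polr2c, Polr2h, Polr2j, Polr2m, Polr3b, Polr3e and Polr3f passed in neither genotype. Some of them passed under other settings. Polr2j in CKO (edgeR adjusted p = 0.052) was called higher with DESeq2 and on the log2(FPKM + 1) scale. When the length trend was removed, Polr2c and Polr2j were called higher and Polr3b lower in both genotypes. The call for Polr2d was lost without ovulated CKO 1 or CKO 2 (edgeR adjusted p of 0.0648 and 0.0527), and that for Polr2f without any 1 of GV CKO 3, GV CKO 4, ovulated CKO 2 and ovulated CKO 3 (0.053 to 0.178). With the length trend removed, 13 subunit genes were lower and 7 higher in CKO, against 3425 and 3769 of all genes. In that fit Polr2d and Polr2g changed sign, to 0.28 and 0.14, without passing, and the calls for Polr3gl (-0.49, edgeR adjusted p = 0.446), Polr1c (-0.34, 0.337) and Polr1d (-0.52, 0.0608) were lost.

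**Figure D2:**
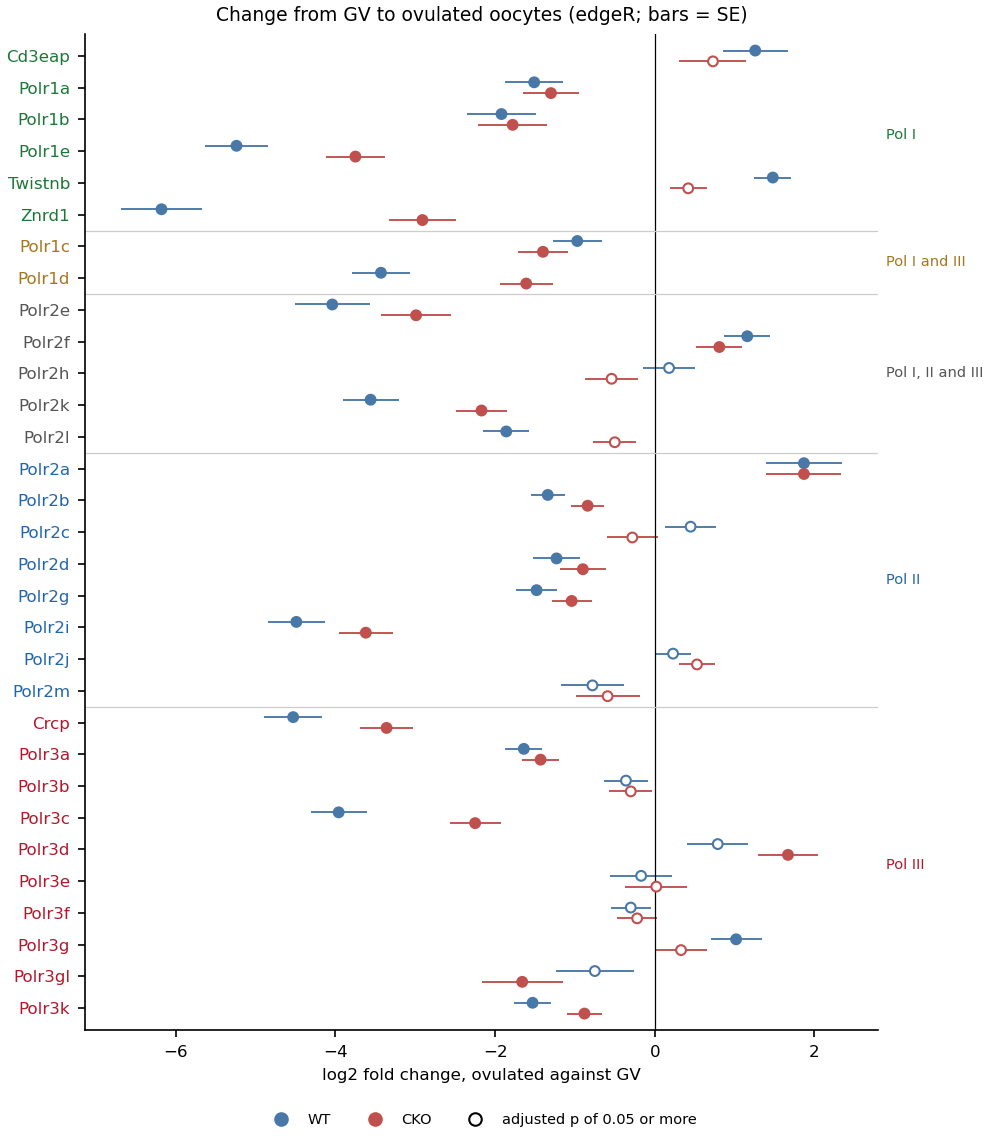
Log2 fold change of ovulated against GV oocytes (horizontal axis, bars are standard errors) for the 31 subunit genes, in WT and in CKO, with open points for an adjusted p of 0.05 or more. The WT points of Znrd1, Polr1e, Crcp, Polr2i and Polr2e lie below -4, and their CKO points lie nearer to 0, from -2.91 for Znrd1 to -3.75 for Polr1e. These genes were picked by their WT values. The test of whether the change differed between genotypes (edgeR interaction) passed among them for Znrd1 only, with an adjusted p of 0.00514. It was 0.0982 for Polr1e, 0.17 for Crcp, 0.336 for Polr2i and 0.397 for Polr2e.

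At the GV stage no subunit gene passed the test between CKO and WT. Of 31 genes tested, 0 were called, against 0.0163% of 12298 genes (0.00813% higher and 0.00813% lower), and DESeq2 also called 0. The median log2 fold change was 0.02 over the subunit genes and 0.03 over all. At an unadjusted p under 0.05 there were 3 of the 31, against 819 of the 12298 genes (edgeR). These 3 were Polr2h at 0.61 (SE 0.22, edgeR adjusted p = 0.666), Polr3g at 0.61 (adjusted p = 0.741) and Znrd1 at 0.49 (adjusted p = 0.741). Polr2h stood at 8.66 ± 1.96 CPM in GV WT and at 13.3 ± 2.15 in GV CKO (SD, n = 4 each). It and Polr2g were the 2 genes whose groups did not overlap, both higher in CKO, against 2.39% of genes higher, 1.81% lower and 4.2% in either direction. The subunit fold changes ran from -0.43 for Cd3eap to 0.70 for Polr2a, and standard errors ran up to 0.48, so differences of that size were not resolved here.

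In ovulated oocytes 5 subunit genes were higher in CKO than in WT and none was lower: Znrd1, Polr1d, Polr2k, Polr2l and Polr3k. That is 16.1% of the 31, against 7.84% of the 12010 genes tested in either direction, 6.44% higher and 1.4% lower (edgeR). The share called higher over all genes depended on transcript length, as given below. It ran from 39.0% at 500 bases or less to 1.45% beyond 4000 bases, and the shares above are not matched for length. At an unadjusted p under 0.05 there were 11 of the 31, against 2795 of the 12010 genes tested (edgeR). The median log2 fold change was 0.32 over the subunit genes and 0.00 over all. By enzyme, the higher genes were 1 of 6 of Pol I, 1 of 2 shared by Pol I and III, 2 of 5 shared by all nuclear polymerases, 0 of 8 of Pol II and 1 of 10 of Pol III. The difference between these classes was not tested. Ovulated WT libraries serve both here and in the WT stage comparison, so the values of the 2 comparisons are not independent: all 5 genes also fell between GV and ovulated WT oocytes.

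**Figure D3:**
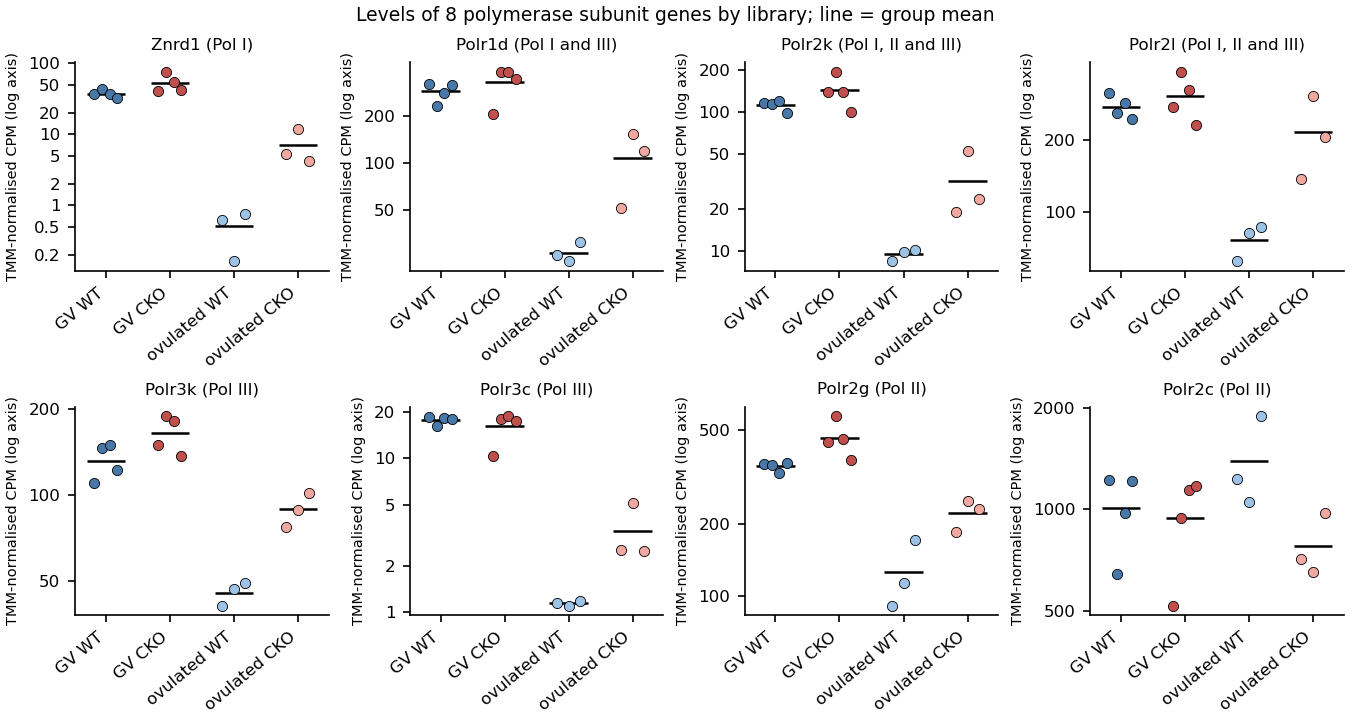
TMM-normalised CPM (log axis) in each library for the 5 genes higher in ovulated CKO, for Polr3c, Polr2g and Polr2c, with group means as lines. In the first 5 panels every ovulated CKO library lies above every ovulated WT library; Polr3c and Polr2g show the same order and Polr2c the opposite one, without passing the test.

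Znrd1 showed the largest difference. Its level was 0.621, 0.161 and 0.748 CPM in ovulated WT and 5.21, 11.8 and 4.17 in ovulated CKO, against 32.3 to 43.4 in GV WT. Every ovulated CKO library was thus above every ovulated WT library and below every GV library. The log2 fold change was 3.81 (SE 0.61, edgeR adjusted p = 0.00178), 14.0-fold. Polr1d encodes a subunit of the assembly platform of Pol I and Pol III. It stood at 25.7, 23.5 and 31.2 CPM in ovulated WT and at 52.0, 154 and 119 in ovulated CKO, again without overlap. The log2 fold change was 2.04 (SE 0.35, edgeR adjusted p = 0.00241).

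The small zinc-binding subunits Polr2k and Polr2l are part of all nuclear polymerases. Polr2k was at 8.42, 9.78 and 10.2 CPM in ovulated WT and at 19.1, 52.0 and 23.8 in ovulated CKO, with a log2 fold change of 1.78 (SE 0.37, edgeR adjusted p = 0.00817). Polr2l was at 61.7, 81.1 and 86.0 against 138, 306 and 207 CPM, with a log2 fold change of 1.54 (SE 0.30, edgeR adjusted p = 0.0052). Ovulated CKO 2 was the highest library for both. Of the Pol III genes, Polr3k was at 41.1, 46.9 and 49.2 against 77.6, 88.5 and 102 CPM, a log2 fold change of 1.00 (SE 0.24, edgeR adjusted p = 0.0201).

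The other 26 genes did not pass. Polr3c came closest, at 1.15, 1.10 and 1.18 CPM in ovulated WT and 2.55, 5.08 and 2.49 in ovulated CKO, with a log2 fold change of 1.60 (edgeR adjusted p = 0.0618). Polr2g at 0.86 (0.0683) and Polr2i at 1.21 (0.0857) followed. Negative values were seen for Polr2c at -0.81 (edgeR adjusted p = 0.0985), Cd3eap at -0.90 (0.225) and Twistnb at -0.62 (0.169), for which every CKO library was below every WT library. Polr2c stood at 1230, 1050 and 1890 CPM in ovulated WT and at 709, 650 and 971 in ovulated CKO. Over the 31 genes the groups did not overlap for 12 that were higher in CKO and 3 that were lower, against 15.0% and 14.1% of all genes (29.1% in either direction). The catalytic subunits did not pass, with Polr1a at 0.16, Polr1b at 0.20, Polr2a at 0.72, Polr2b at 0.51, Polr3a at 0.32 and Polr3b at 0.12.

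Of the ovulated CKO libraries, CKO 2 had the highest level for 16 of the 31 genes and for 4 of the 5 called, CKO 3 for 10 and CKO 1 for 5. Without ovulated CKO 2, the genes called were Znrd1, Polr1d, Polr2k and Polr2l, while Polr3k was lost (edgeR adjusted p = 0.0586). Polr3k was also lost without ovulated WT 1, WT 2 or CKO 3 (0.127, 0.0756 and 0.0804). Without ovulated CKO 1, 8 were higher. With both ovulated WT 3 and CKO 2 left out, 4 were higher: Znrd1, Polr1d, Polr2g and Polr2l. The summed granulosa and cumulus markers were 103 to 114 CPM in ovulated WT and 83.1 to 104 in ovulated CKO, and of the cumulus markers Ptx3 was at 0 in ovulated WT, and Tnfaip6 and Inhbb were at 0 in ovulated CKO. The blood, immune and stromal markers summed to 82.6 to 139 and 54.9 to 104, mostly Pecam1. Single markers went both ways. From ovulated WT to ovulated CKO, mean Cyp19a1 went from 84.5 to 61.4 CPM and Pecam1 from 106 to 70.0. Nr5a2 went from 11.9 to 16.5 and Cd68 from 2.31 to 3.75. The part of these markers in the genotype differences was not tested.

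**Figure D4:**
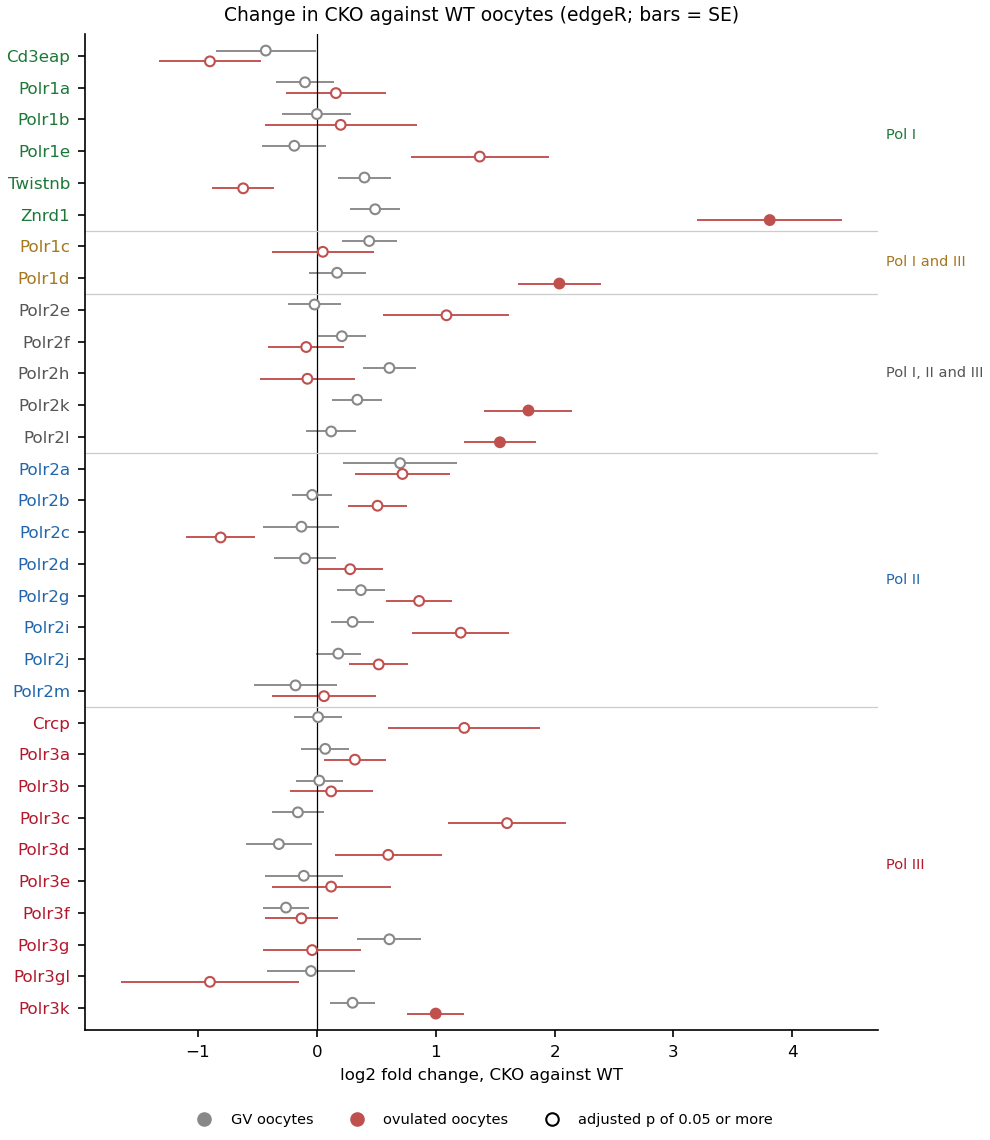
Log2 fold change of CKO against WT (horizontal axis, bars are standard errors) for the 31 subunit genes, in GV and in ovulated oocytes, with open points for an adjusted p of 0.05 or more. All GV points are open and lie between -0.43 and 0.70, while 5 ovulated points are filled and lie between 1.00 and 3.81.

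Short transcripts were higher in ovulated CKO oocytes across the whole data set. Over 341 tested genes with transcripts of at most 500 bases (length worked out from count and FPKM), the median log2 fold change was 1.22 and 39.0% were called higher. The corresponding values were 0.59 and 20.8% up to 1000 bases, 0.05 and 7.3% up to 2000, -0.07 and 3.75% up to 4000, and -0.09 and 1.45% beyond. Within these classes the medians of the subunit genes were 1.21 (5 genes, 2 called), 0.86 (5 genes, 1 called), 0.60 (7 genes, 1 called), 0.09 (10 genes, 1 called) and 0.24 (4 genes, 0 called). By the same measure Polr2k is 311.6 bases long, Znrd1 467.6 and Polr1d 684.6, whereas Polr2l and Polr3k are 1440.5 and 2695 bases long. Spearman's rho between length and the log2 fold change was -0.25 over the 31 genes and -0.20 over 11823 genes, across genes that share the same libraries. With the length trend removed, 4 genes were higher, Znrd1 at 2.89 (edgeR adjusted p = 0.012), Polr2l at 1.39, Polr1d at 1.31 and Polr3k at 1.02. In that fit Polr2k was at 0.49 (edgeR adjusted p = 0.296), Polr2c at -0.94 (0.0407) and Polr2f at -1.27 (0.00843), the latter 2 now called lower. Its median log2 fold change was 0.23 over the subunit genes and -0.04 over all genes. The share of all genes called in that fit is not given here, so these counts cannot be set against it.

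**Figure D5:**
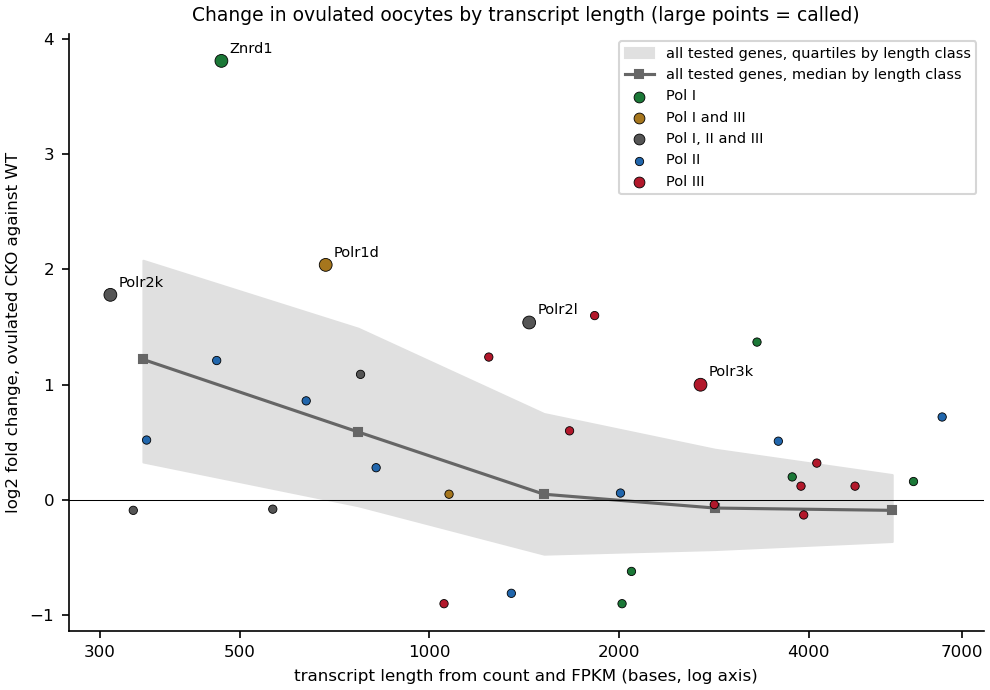
Log2 fold change of ovulated CKO against WT by transcript length (log axis) for the 31 subunit genes, coloured by enzyme, with called genes as large points, and the median and quartiles of all tested genes by length class in grey. The grey median falls from 1.22 for the shortest transcripts to -0.09 for the longest. Of the called genes, Znrd1, Polr1d, Polr2l and Polr3k lie above the upper quartile of their length class. They were called on this same fold change, so their place in the class is not separate evidence. Genes that were not called also lie above that quartile, among them Polr3c, Crcp and Polr1e.

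Whether the genotype difference itself changed between stages was tested as an interaction. It was more positive in ovulated oocytes for 3 of the 31 genes and more negative for none, against 3.26% of 13199 genes in either direction, 3.17% more positive and 0.0833% more negative (edgeR). The genes were Znrd1 at 3.27 on the log2 scale (SE 0.58, adjusted p = 0.00514), Polr1d at 1.82 (SE 0.44, adjusted p = 0.0317) and Polr3c at 1.70 (SE 0.43, adjusted p = 0.0374). Of these, Polr3c had not passed in ovulated oocytes alone. Polr2l at 1.36 (edgeR adjusted p = 0.0599), Polr2k at 1.39 (0.0907) and Polr3k at 0.65 (0.317) did not pass here, nor did Twistnb at -1.06 (0.0971). The median was 0.21 over the subunit genes and -0.07 over all genes. An unadjusted p under 0.05 was seen for 9 of the 31, against 2052 of 13199 genes (edgeR). The Znrd1 call was kept whichever library was left out. That of Polr3c was lost without any 1 of 11 libraries, all but GV WT 2, ovulated CKO 1 and ovulated CKO 3 (edgeR adjusted p of 0.0517 to 0.159). That of Polr1d was lost without any 1 of 7, namely GV WT 1, 3 and 4, ovulated WT 1 and 2 and ovulated CKO 2 and 3 (0.0569 to 0.13). With the length trend removed, Znrd1 and Polr3c were more positive and Polr2f and Twistnb more negative. The median was then 0.22 over the subunit genes and -0.09 over all genes. The share of all genes called in that fit is not given here.

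The factors that work with the polymerases were described by lists chosen with earlier results of these data known. Of 10 Pol I factors, 36 general transcription factors of Pol II, 17 factors of Pol III and 23 genes for Pol II assembly, pausing and elongation, 0 were called at the GV stage between genotypes. In ovulated oocytes the counts called higher in CKO were 0 of 9, 1 of 36, 1 of 16 and 1 of 22 tested, with none lower, against 6.44% higher and 1.4% lower over all genes. Snapc5, a subunit of the complex that recruits polymerases to small nuclear RNA genes, rose from 2.86 ± 0.413 to 17.2 ± 6.48 CPM (SD, n = 3 each), by 2.62 on the log2 scale (SE 0.38, edgeR adjusted p = 0.000986). Gtf2h5, the smallest subunit of the general factor TFIIH, rose by 1.71, from 14.7 to 46.9 CPM (edgeR adjusted p = 0.00366). Supt4a, a subunit of the elongation factor DSIF, was higher by 1.92 (edgeR adjusted p = 0.0443), a call lost without ovulated WT 1, WT 2 or CKO 2 (0.147 to 0.363), with a 10 CPM filter (0.0711) and on the FPKM scales (0.0939 to 0.256). Its log2 fold change was 0.99 without ovulated CKO 2 and 0.94 with the length trend removed (edgeR adjusted p = 0.198). Median log2 fold changes of the 4 lists were 0.05, -0.04, 0.02 and -0.02, against 0.32 for the subunit genes. These medians are not matched for transcript length, and the difference between the lists was not tested. With the length trend removed, the median of the subunit genes was 0.23, against -0.04 over all genes. In the interaction, Snapc5 at 2.18 and Gtf2h5 at 1.39 passed (edgeR adjusted p of 0.0111 and 0.042), the latter call lost without any 1 of 11 libraries, all but GV CKO 2, ovulated CKO 1 and ovulated CKO 3 (0.0544 to 0.172).

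Between GV and ovulated WT oocytes these factors went both ways. Of the Pol I factors 6 of 10 were called, and of the other lists 69.4%, 76.5% and 69.6%, near the 66.4% of all genes (30.3% higher and 36.2% lower). Of the Pol I factors 2 rose and 4 fell, among them Tcof1, a nucleolar factor of ribosomal RNA synthesis, which rose by 2.48, and Rrn3, which brings Pol I to its promoter and fell, at -1.49. Taf1a and Taf1b, of the promoter selectivity factor, also fell, the latter at -2.20. Of the Pol II general factors 14 rose and 11 fell, with a median of 0.35: Taf4 rose by 2.92, Taf1 by 2.19 and the TBP relative Tbpl1 by 2.08, whereas Ercc3, a TFIIH helicase, and Gtf2f2, of TFIIF, fell, at -4.28 and -3.00. Of the Pol III factors 5 rose and 8 fell, with Bdp1 at 1.68, Snapc1 at 1.24, Snapc5 at -3.33 and Gtf3c6 at -2.95. Of the assembly, pausing and elongation genes 6 rose and 10 fell. Gpn1, a GTPase needed to bring Pol II into the nucleus, fell, at -5.53, from 118 ± 23.8 CPM (SD, n = 4) to 2.57 ± 0.807 (SD, n = 3), and the pausing factor subunit Nelfe fell, at -5.20. In CKO the counts were 2 up and 3 down, 12 and 11, 3 and 7, and 4 and 9 in the same order of lists, against 23.2% up and 31.2% down over all genes, and Gpn1 was at -4.35, also called lower.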

How the data were processed

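Libraries were made from lysed oocytes with SMART-SeqII first-strand synthesis and PCR preamplification, per the labels' protocols. The authors deposited estimated counts per gene (17.6% of GV and 18.3% of ovulated values above 0 are not whole, tolerance 0.001) without normalisation, and FPKM, scaled to transcript length and mapped fragments, per the file headers. Reads were placed on mm10, per the submitters' processing notes, with an aligner and a counter not given in the sources used here. Of 18507 gene identifiers, 18456 matched RefSeq GRCm38.p6, and 3′ ends were read from the GRCm38 genome with its GENCODE annotation.

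Estimated counts were rounded. Genotypes were compared within each stage's own table, and stages and the interaction in a fit of all 4 groups on the genes common to both tables. The test was the robust quasi-likelihood F test of edgeR 4.0.16 (R 4.3.3) after TMM scaling and filterByExpr. P-values were adjusted over all genes tested and called under 0.05. The printed CPM use the TMM factors of the fit with all groups. Alternatives used DESeq2 1.42.0, limma 3.58.1 on log2(FPKM + 1) and log2(FPKM + 0.1), other scaling and filters, a replicate block, removal of a per-library loess trend (span 0.5) on transcript length, and left-out libraries. The scripts were tested on simulated data. Counting intervals are not given, since PCR reads without molecular identifiers are not independent molecules.

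One gene that the rule also selects is not reported here, and all counts over subunit genes leave it out. The members, gene lists and doubted libraries were chosen with earlier results of these data known. Every member was to be accounted for, with values for called ones (beyond 10, at least the 10 with the smallest p) or the 3 with the smallest p where fewer than 3 were called. From each list of factors, genes were named from the 3 called per direction with the smallest p.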

Additional observations from a re-analysis of the deposited data

Results flagged for a closer look

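In 62 groups of 4 GV libraries (31 genes, WT and CKO), 3 single libraries lay far from the rest of their group. Chance alone marks about 1 in 20 groups in this way, and groups of 3 were not screened. Polr2a was at 3.78 CPM in GV WT 2 against 1.38 to 1.69 in the other GV WT libraries, Polr2e at 37.4 in the same library was the lowest of its group, and Polr3c was lowest in GV CKO 1, at 10.4. Both libraries are among the 3 GV libraries that stand apart in the share of counts taken by the 100 most abundant genes. The part of that difference in these 3 values was not tested.

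The difference between CKO and WT was more positive in ovulated than in GV oocytes by the interaction test for Znrd1 by 3.27 on the log2 scale, Polr1d by 1.82 and Polr3c by 1.70.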

How the results depend on the processing

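For the subunit genes, the WT stage comparison gave 21 to 25 calls (against 22) under every alternative but 1, the filter at a mean of 10 CPM, which left 20 genes to test and 15 calls. In ovulated oocytes, DESeq2 called 9 subunit genes (8 higher, Polr2c lower), unfiltered log2(FPKM + 1) called 0 (13 at an unadjusted p under 0.05), and leaving out single libraries gave 4 to 8 (8 without ovulated CKO 1), against 5. The interaction gave 7 calls with DESeq2, 1 with log2(FPKM + 1), 0 with it unfiltered, 1 without GV WT 2, GV CKO 1 and GV CKO 2, 1 without ovulated WT 3 and CKO 2, and 1 to 6 without single libraries (6 without ovulated CKO 1), against 3. Removing the length trend turned Polr1c (0.39), Polr2d (0.31) and Polr2g (0.22) in the WT stage comparison, and Polr2d (0.28) and Polr2g (0.14) in CKO. RLE scaling moved the median of all genes in the CKO stage comparison from -0.19 to -0.08, and length removal moved it to 0.06, and in WT from -0.17 to 0.08.

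Over all genes, GV calls (2) were 4 unfiltered, 56 with DESeq2, 1 with unfiltered log2(FPKM + 1), 4 with the length trend removed, 63 without the 3 GV libraries above and 2 to 5 without single libraries. Ovulated calls (942) were 506 at 10 CPM, 1593 with DESeq2, 546 and 1 with log2(FPKM + 1) filtered and unfiltered, 235 without ovulated WT 3 and CKO 2, and 341 (without ovulated CKO 2) to 1652 (without ovulated CKO 1) without single libraries. Stage calls at 10 CPM were 5155 in WT and 4458 in CKO. Interaction calls (430) were 889 with DESeq2, 94, 191 and 54 with log2(FPKM + 1), log2(FPKM + 0.1) and unfiltered log2(FPKM + 1), 229 and 157 without those GV or ovulated libraries, and 129 to 1006 without single libraries. The cause was not tested. Correlations of same-numbered deviations ran from -0.338 to 0.447. With so few libraries per group they cannot show whether replicate numbers pair the libraries, and the main fits used no pairing. With the replicate numbers as a block, ovulated calls were 1630 over all genes and 8 over the subunit genes. Interaction calls were then 337 and 2, and stage calls over the subunit genes 22 in WT and 20 in CKO.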
